A study of Homo sapiens with 6 samples.

Results

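Lysosome and autophagy genes were examined in DU145 cells, a human prostate cancer line derived from a brain metastasis, after treatment with taraxasterol (TAX), a pentacyclic triterpene of dandelion. The 36 genes were taken by name from a list chosen with earlier results of these data known. All 36 were found among the 23062 identifiers of each table. They encode 3 transcription factors (TFEB, TFE3 and MITF), 5 proteins of the lysosomal membrane, 6 proteases, 4 glycosidases, 5 proteins of lipid handling, 5 subunits of the proton pump and 8 autophagy proteins. The control group was 3 cultures of wild-type DU145 cells kept in medium for 48 h, and the TAX group was 3 cultures of the same cells given 56 µM TAX, the dose the study took as the 50% inhibition concentration, for 48 h. TAX was dissolved in DMSO, and whether control cells received DMSO is not stated, so solvent and TAX cannot be told apart. Nothing in the labels says that the 3 libraries of a group came from separate cell passages, so the p-values measure only the spread between these libraries.

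Lysosomes are acidic organelles in which hydrolases degrade material delivered by endocytosis and autophagy. The vacuolar ATPase pumps protons into the lumen, and membrane glycoproteins line and protect it. In autophagy, a membrane decorated with lipid-linked LC3 and GABARAP proteins encloses cargo and fuses with the lysosome. TFEB, TFE3 and MITF are related factors that enter the nucleus when the kinase mTORC1 is inactive and bind an E-box element in promoters of many lysosomal genes. Their activity is set largely by phosphorylation and location, which RNA sequencing does not measure.

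FPKM was taken as the unit of the deposited values, in which fragments are scaled to the length of the gene and the depth of the library, so levels can be set side by side between genes. The summed FPKM was 322483 to 363724 per library, and 3997 to 4798 identifiers were listed at 0. The number of reads is unknown, so no counting error can be given. Control replicate 3 stood apart from the other libraries. It held the lowest of the 6 values for 58.0% of the 12359 genes tested and for 28 of the 36 lysosome and autophagy genes, and its median deviation from the mean of the 6 libraries was -0.12 on the log2 scale over all genes tested and -0.21 over the 36 genes. Results that rest on this library are given with and without it. Of the markers that define the labelled cells, the epithelial genes were high in every library, with EPCAM at 55.0 to 66.2 FPKM. The log2 fold changes of the 5 epithelial markers were 0.14 for EPCAM, 0.14 for KRT8, 0.30 for KRT18, 0.32 for KRT19 and -0.16 for CDH1 (adjusted p from 0.336 to 0.733, limma). KRT19 and KRT18 were higher at an unadjusted p under 0.05 (0.0108 and 0.0225, limma), as were 7.73% of all genes tested. All TAX values lay above the controls for EPCAM, KRT18 and KRT19, and for 14.6% of all genes tested, while KRT8 and CDH1 overlapped. The part of these markers in the results was not tested. In RNA of whole cultures, a change in the share of expressing cells and a change per cell cannot be told apart.

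E-box elements were looked for in promoter windows from RefSeq (GRCh38.p14, 250 bases before to 50 bases after the transcription start), which were found for 28 of the 36 genes. The letters TCACGTGA, the core of the element bound by TFEB, read the same on both strands and contain the shorter E-box CACGTG. TCACGTGA was present in the windows of 5 genes, ATP6V0D1, MCOLN1, GAA, LAMP1 and CTSA, which is 13.2% of the 38 windows of the 28 genes, while 0.980% of all 35116 promoter windows and 1.78% of the windows of genes tested held it. CACGTG was also found in CTSD, and 7.26% of all windows held it. The stretches with TCACGTGA in capitals and 12 bases on either side of the outermost sites are shown in the direction of transcription. They come from the 5 genes, among the 28 with a window, whose windows carry the letters of the element. The 8 genes without a window were not searched (ASAH1, ATP6V1A, ATP6V1B2, ATP6V1H, CTSB, HEXA, LAMP2 and PSAP).

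ATP6V0D1: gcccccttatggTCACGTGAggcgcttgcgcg

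MCOLN1: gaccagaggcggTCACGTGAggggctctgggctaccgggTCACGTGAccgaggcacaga

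GAA: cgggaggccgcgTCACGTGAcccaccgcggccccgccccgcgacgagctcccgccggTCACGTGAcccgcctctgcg

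LAMP1: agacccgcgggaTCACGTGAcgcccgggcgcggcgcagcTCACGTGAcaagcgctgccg

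CTSA: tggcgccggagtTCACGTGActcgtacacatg

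The stretches lie at chr16:67481198-67481229 on the minus strand for ATP6V0D1 and, on the plus strand, at chr19:7522570-7522628 for MCOLN1, chr17:80101492-80101568 for GAA, chr13:113297198-113297256 for LAMP1 and chr20:45891297-45891328 for CTSA. The first site began 60 bases before the start in ATP6V0D1, 42 in MCOLN1, 77 in GAA, 29 in LAMP1 and 26 in CTSA. MCOLN1, GAA and LAMP1 held 2 sites each. The median log2 fold change after TAX treatment was 0.09 over the 5 genes with TCACGTGA and 0.06 over the 23 genes with a window without it, a description with no test. The windows of CD68, GABARAPL1 and ATP6V0A1 held no CACGTG, which says only that these letters are not in those windows.

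To find how TAX altered these genes, log2(FPKM + 1) of the TAX group was set against that of the control group with limma. The fit covered the 12359 genes that reached 1 FPKM in 3 or more libraries, and p-values carry a Benjamini-Hochberg adjustment over all of them. All 36 genes were among those tested. Fold changes are on the log2(FPKM + 1) scale, which understates the change of low genes. At an adjusted p under 0.05, 0 of the 36 genes were higher and 0 were lower, where 0.316% of all genes tested were higher and 0.162% were lower. At an unadjusted p under 0.05, 4 of the 36 genes were higher (CD68, ATP6V0A1, ATP6V1H and ATP6V0D1) and 1 was lower (GABARAPL1), against a background of 7.73% higher and 2.41% lower among all genes tested. The 3 TAX values lay above the 3 control values for 6 genes and below them for 1 gene, while 14.6% of all genes tested lay above and 3.34% below. In total 26 of the 36 genes were on the higher and 10 on the lower side, with a median log2 fold change of 0.07, and the median of all genes tested was 0.05. Without control replicate 3 the number on the higher side was 15 of 36 and the median was -0.01, and with each library centred on its own median the number was 23 and the median 0.02. The median of all genes tested moved as well, to 0.0055 without control replicate 3 and to -0.0034 after centring.

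The 95% interval of the log2 fold change held 0 for 31 of the 36 genes. For 35 genes it lay within a change of 1.5-fold in either direction, and CD68 was the exception. When each library was centred on its own median before the comparison, CD68 was higher and GABARAPL1 was lower at an adjusted p under 0.05 (0.0444 and 0.0458 from limma), with 0.372% of all genes higher and 0.405% lower. In that comparison 3 of the 36 genes were higher (CD68, ATP6V0A1 and ATP6V0D1) and 3 were lower (GABARAPL1, GAA and LIPA) at an unadjusted p under 0.05, against 5.52% and 6.59% of all genes tested.

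**Figure D1:**
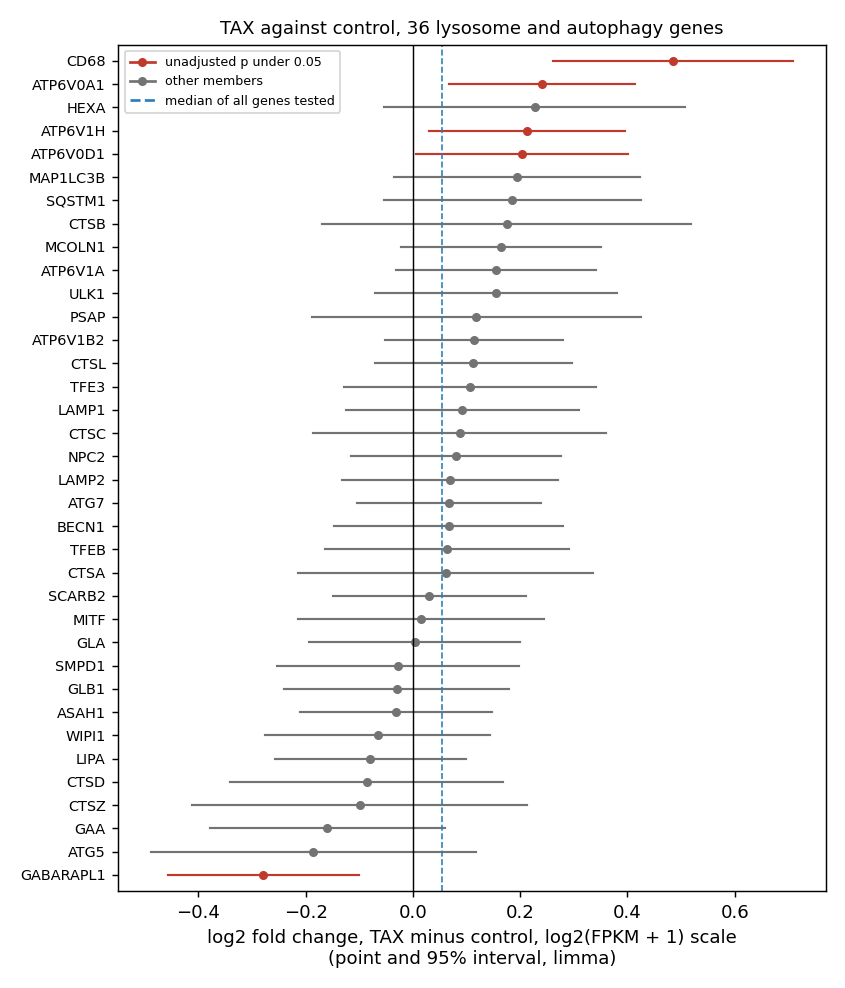
Log2 fold change of each of the 36 genes (TAX minus control, log2(FPKM + 1) scale) with its 95% interval from limma, ordered by size. The 5 genes at an unadjusted p under 0.05 are in red, the solid line marks 0 and the dashed line the median of all genes tested, 0.05. CD68 lies farthest right at 0.48 and GABARAPL1 farthest left at -0.28.

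The transcription factors differed in level. TFE3 had the highest FPKM of the 3, with 23.3, 22.5 and 17.5 FPKM in the controls and 23.0, 21.8 and 23.1 FPKM under TAX, listed here and below in the order of replicates 1, 2 and 3. MITF, which also drives the melanocyte lineage, had 8.17 to 11.0 FPKM over the 6 libraries, and TFEB had 0.838 to 1.38 FPKM. These 3 ranges did not overlap. Control and TAX values of each factor overlapped, and the log2 fold changes were 0.11 for TFE3 (95% interval -0.13 to 0.34), 0.06 for TFEB (-0.16 to 0.29) and 0.01 for MITF (-0.21 to 0.24), with adjusted p from 0.747 to 0.969 (limma). All 3 were below 0 without control replicate 3, at -0.02, -0.04 and -0.10, and MITF was also below 0 under each of 3 other scalings.

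**Figure D2:**
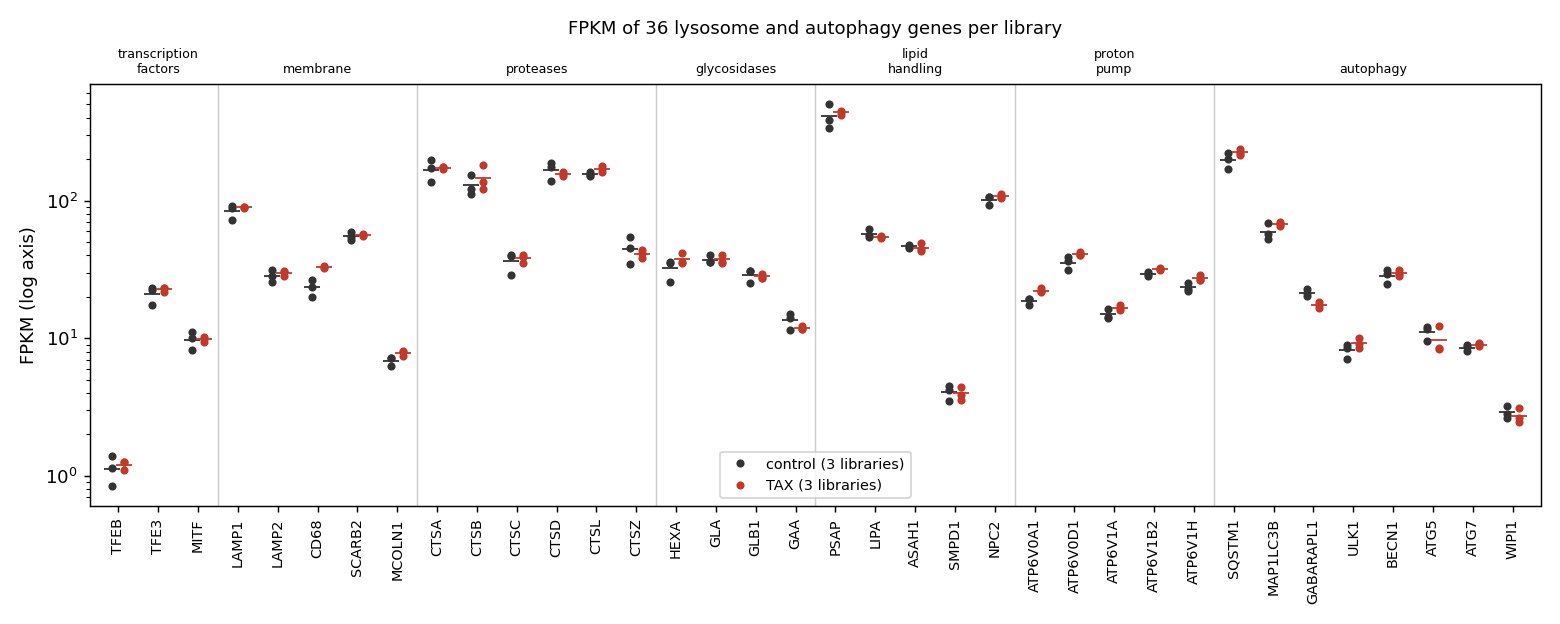
FPKM of the 36 genes in each library on a log axis, grouped by role. Points are single libraries, control in black and TAX in red, and short bars are the means of 3 libraries. PSAP is highest, with a mean of 423 FPKM over the 6 libraries, and TFEB is lowest, with 1.16 FPKM.

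Of the 5 membrane proteins, CD68 was the most different between the groups. CD68 is a heavily glycosylated lysosomal membrane protein used as a macrophage marker. Its level was 26.7, 23.6 and 20.01 FPKM in the controls and 32.5, 33.4 and 32.9 FPKM under TAX. Every TAX library lay above every control library, and the TAX libraries differed by less than the control libraries. The control mean of CD68 was 23.4 ± 3.34 FPKM and the TAX mean 33.0 ± 0.482 FPKM (SD, n = 3 per group). The log2 fold change was 0.48 (standard error 0.10, unadjusted p = 0.000658, adjusted p = 0.0884 from limma), rank 92 by p among all genes tested. The adjusted p of CD68 was under 0.05 when libraries were centred on their medians, after quantile normalization (0.0466) and after scaling to a fixed sum (0.0341), and above 0.05 in the other 11 alternatives, where it was 0.0692 to 0.283 (limma). Without control replicate 3 the log2 fold change of CD68 was 0.38 (adjusted p = 0.0913, limma). CD68 lies on chromosome 17 from 7579467 to 7582113 on the plus strand in GENCODE 29 (GRCh38), where AC016876.2 overlaps it on the same strand, so the origin of part of its reads is uncertain.

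Of the 7 other macrophage markers, 0 reached the level required for testing, and their summed level was 0.310 to 0.573 FPKM in the controls and 0.441 to 0.642 FPKM under TAX. PTPRC, the pan-leukocyte phosphatase, was at 0 in 5 of the 6 libraries and at 0.00692 FPKM in control replicate 3. CD163 and AIF1 were listed at 0 in all 6 libraries.

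MCOLN1, the calcium and cation channel of lysosomes, had 7.19, 7.20 and 6.25 FPKM in the controls and 7.42, 8.13 and 7.93 FPKM under TAX. The groups did not overlap, but the log2 fold change of 0.16 missed both thresholds (unadjusted p = 0.0772, adjusted p = 0.536, limma). It was 0.11 without control replicate 3. MCOLN1 shares part of its position with PNPLA6 on the same strand, whose log2 fold change was -0.02. LAMP1 and LAMP2, the abundant glycoproteins of the lysosomal membrane, had 72.4 to 91.1 and 25.5 to 31.5 FPKM over the 6 libraries, with log2 fold changes of 0.09 (95% interval -0.13 to 0.31) and 0.07 (-0.13 to 0.27). SCARB2, the receptor that carries glucocerebrosidase to lysosomes, had 51.3 to 58.7 FPKM and a log2 fold change of 0.03 (-0.15 to 0.21), and was -0.03 after centring. The groups overlapped for LAMP1, LAMP2 and SCARB2, and all 3 were slightly below 0 without control replicate 3.

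The 5 proton pump genes of the list all lay on the higher side, as did 69.1% of all genes tested. The vacuolar ATPase has a membrane sector, V0, that conducts protons and a cytosolic sector, V1, that splits ATP. ATP6V0A1, the a subunit of V0, had 19.2, 19.3 and 17.4 FPKM in the controls and 23.1, 21.6 and 21.9 FPKM under TAX. ATP6V0D1, the d subunit of V0, had 38.6, 36.3 and 31.6 FPKM in the controls and 40.2, 40.4 and 42.0 FPKM under TAX. ATP6V1H, the regulatory H subunit of V1, had 22.2, 25.3 and 22.6 FPKM in the controls and 26.4, 28.6 and 26.7 FPKM under TAX. As for 14.6% of all genes tested, every TAX library was above every control library for these 3 genes. Their log2 fold changes were 0.24, 0.20 and 0.21 (standard errors 0.08, 0.09 and 0.08), with unadjusted p of 0.0114, 0.0454 and 0.0266 and adjusted p of 0.338, 0.485 and 0.429 (limma).

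ATP6V1B2, a nucleotide-binding B subunit of V1, was also without overlap, at 28.3 to 30.5 FPKM in the controls and 31.3 to 32.6 FPKM under TAX, with a log2 fold change of 0.11 (adjusted p = 0.622, limma). ATP6V1A, the catalytic A subunit, had 14.0, 16.3 and 14.4 FPKM in the controls and 17.4, 16.0 and 16.6 FPKM under TAX, so that TAX replicate 2 lay just under control replicate 2, and its log2 fold change was 0.16 (adjusted p = 0.553, limma). The median log2 fold change of the 5 pump genes was 0.20, compared with 0.05 for all genes tested. All 5 stayed above 0 in each of the 14 alternatives. The 2 other filters, limma without trend and the replicate block could not change a sign, and all alternatives reuse the same libraries. Without control replicate 3, ATP6V0A1 and ATP6V1H were at 0.20 and 0.19 and ATP6V0D1 at 0.12, the last with an unadjusted p of 0.0747 (limma).

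The remaining genes of the pump lay on both sides. Of 12 further subunit and accessory genes, 6 were on the higher and 6 on the lower side, 0 passed an unadjusted or adjusted p under 0.05 and their median log2 fold change was 0.03. ATP6V0E2, an e subunit, had the smallest p of them, with 16.4, 14.0 and 13.5 FPKM in the controls and 15.2, 19.8 and 17.4 FPKM under TAX and a log2 fold change of 0.24 (adjusted p = 0.492, limma). ATP6V0A2, another a subunit, followed with 0.15 (adjusted p = 0.558, limma). Over all 17 pump genes, 11 were on the higher side, and the summed FPKM was 669 to 753 in control and 713 to 784 in TAX libraries, with overlap.

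**Figure D3:**
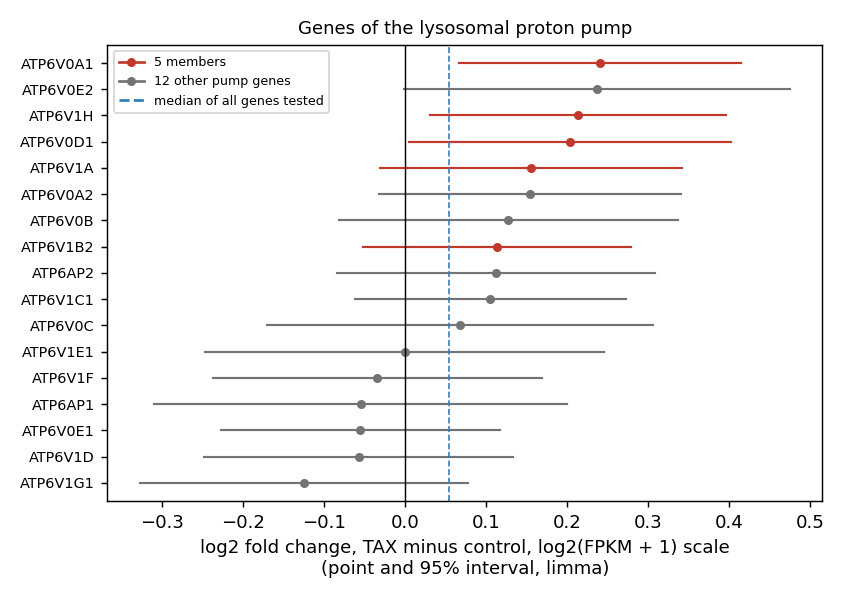
Log2 fold change (TAX minus control, log2(FPKM + 1) scale) with its 95% interval from limma for 17 genes of the vacuolar ATPase. The 5 genes of the list are in red and the 12 other pump genes in grey, the solid line marks 0 and the dashed line the median of all genes tested. The red points lie between 0.11 and 0.24, and 6 of the grey points lie on the lower side, 1 of them, ATP6V1E1, close to 0.

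The proteases were abundant, and with all libraries 0 of the 6 passed a threshold in either direction. Without control replicate 3, CTSD and CTSZ were lower at an unadjusted p under 0.05, as were 5.59% of all genes tested. CTSD, the aspartic protease cathepsin D, had 175, 189 and 138 FPKM in the controls and 161, 157 and 150 FPKM under TAX. The TAX values thus lay between those of control replicate 3 and the other controls, and the direction of CTSD turned on single libraries. Its log2 fold change was -0.09 with all libraries (adjusted p = 0.811, limma), -0.22 without control replicate 3 (unadjusted p = 0.0149, adjusted p = 0.305, limma) and 0.01 without control replicate 2. CTSB, a cysteine protease, had 122, 153 and 112 FPKM in the controls and 121, 137 and 181 FPKM under TAX, where the last value was the highest of the 6. Its log2 fold change was 0.17 (95% interval -0.17 to 0.52), and 0.08 without control replicate 3.

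CTSL, the cysteine protease cathepsin L, had 152 to 162 FPKM in the controls and 161 to 177 FPKM under TAX, with a slight overlap and a log2 fold change of 0.11 (-0.07 to 0.30). CTSA, which protects other lysosomal enzymes from degradation, had 135 to 196 FPKM in the controls and 170 to 177 FPKM under TAX. CTSC, an aminopeptidase that activates serine proteases, had 28.8 to 40.2 and 35.2 to 40.1 FPKM. CTSZ, a carboxypeptidase, had 34.5 to 54.7 and 38.4 to 43.5 FPKM. For CTSA, CTSC and CTSZ the TAX range lay inside the control range, and their adjusted p was 0.825 to 0.882 (limma). The log2 fold changes were 0.06, 0.09 and -0.10 with all libraries and -0.086, -0.064 and -0.27 without control replicate 3.

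Among the glycosidases, HEXA and GAA lay on opposite sides and passed no threshold. HEXA, the alpha subunit of the hexosaminidase that degrades ganglioside GM2, had 35.0, 35.9 and 25.7 FPKM in the controls and 35.9, 41.7 and 35.0 FPKM under TAX (log2 fold change 0.23, adjusted p = 0.565, limma). The low control replicate 3 and the high TAX replicate 2 stood out, and the log2 fold change of HEXA was 0.08 without the former. GAA, which degrades glycogen in lysosomes, had 14.1, 14.9 and 11.4 FPKM in the controls and 12.3, 11.7 and 11.7 FPKM under TAX (log2 fold change -0.16, adjusted p = 0.605, limma). Without control replicate 3 the log2 fold change of GAA was -0.27 (adjusted p = 0.178, limma). GLA, the alpha-galactosidase, had 35.6 to 40.5 FPKM in the controls and 35.5 to 40.6 FPKM under TAX, and GLB1, the beta-galactosidase, had 25.1 to 31.0 and 27.4 to 29.5 FPKM. Their log2 fold changes were 0.0031 (95% interval -0.19 to 0.20) and -0.03 (-0.24 to 0.18), and GLA was -0.055 after centring.

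Genes of lysosomal lipid handling included the most abundant of the list. PSAP, the precursor of the saposins that help enzymes reach sphingolipids, had 384, 507 and 335 FPKM in the controls and 443, 419 and 449 FPKM under TAX. The TAX values lay inside the wide control range, and the log2 fold change was 0.12 (-0.19 to 0.43). LIPA, the acid lipase that frees cholesterol from its esters, had 56.6, 61.6 and 54.1 FPKM in the controls and 54.9, 54.0 and 53.9 FPKM under TAX (log2 fold change -0.08, adjusted p = 0.755, limma). In GENCODE 29 the longest span of LIPA, on chromosome 10 from 89213569 to 89414557, overlaps IFIT1, IFIT2 and IFIT3 on the opposite strand, which had log2 fold changes of -0.75, -0.83 and -0.62. The strand setting of the counting is not stated, and its part in the value of LIPA was not tested. NPC2, which binds cholesterol in the lumen, had 92.1 to 107 FPKM in the controls and 104 to 112 FPKM under TAX (log2 fold change 0.08, -0.11 to 0.28). ASAH1, the acid ceramidase, and SMPD1, the acid sphingomyelinase, had means of 46.0 and 4.02 FPKM over the 6 libraries, and the log2 fold change of both was -0.03.

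In autophagy, GABARAPL1 was the gene with the lowest log2 fold change of the 36. GABARAPL1 encodes a ubiquitin-like protein that is joined to the lipid of autophagosome membranes. Its level was 21.5, 22.6 and 20.1 FPKM in the controls and 17.5, 16.6 and 18.3 FPKM under TAX. Every TAX library lay below every control library, which was also so for 3.34% of all genes tested. Among the 36 genes this held for GABARAPL1 alone. The gene lies on chromosome 12 from 10212458 to 10223130 on the plus strand. The control mean of GABARAPL1 was 21.4 ± 1.25 FPKM and the TAX mean 17.5 ± 0.830 FPKM (SD, n = 3 per group). The log2 fold change was -0.28 (standard error 0.08, unadjusted p = 0.00569, adjusted p = 0.257 from limma). In contrast to most genes of the list, GABARAPL1 in control replicate 3 was not the lowest of the 6 values, and without that library its log2 fold change was -0.32 (adjusted p = 0.139, limma). The adjusted p of GABARAPL1 was under 0.05 when libraries were centred on their medians and after quantile normalization (0.0467), and above 0.05 in the other 12 alternatives, where it was 0.118 to 0.617 (limma).

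Outside the list, the related genes GABARAP, MAP1LC3A and GABARAPL2 had log2 fold changes of -0.12, -0.11 and -0.05, and MAP1LC3B2 had 0.13. Their adjusted p was 0.653 to 0.857 (limma). MAP1LC3B, a gene of the list that encodes the related protein LC3B, was on the higher side. It had 56.9, 68.8 and 52.5 FPKM in the controls and 70.0, 65.4 and 67.7 FPKM under TAX, with overlap through control replicate 2 (log2 fold change 0.19, adjusted p = 0.545, limma). MAP1LC3B2, a near-identical copy whose reads cannot be cleanly told apart from it, had 2.09 to 3.42 FPKM. FBXO31, which overlaps MAP1LC3B on the opposite strand, had a log2 fold change of 0.26 (adjusted p = 0.406, limma). SQSTM1, which encodes the cargo receptor p62, had 201, 222 and 170 FPKM in the controls and 236, 214 and 221 FPKM under TAX, also with overlap through control replicate 2 (log2 fold change 0.19, adjusted p = 0.582, limma). MGAT4B overlaps SQSTM1 on the opposite strand and had a log2 fold change of 0.21 (adjusted p = 0.487, limma), and reads of overlapping genes cannot be told apart without strand. Without control replicate 2, SQSTM1 and MAP1LC3B were among 8 genes of the list on the higher side at an unadjusted p under 0.05. The share of all genes tested was then 11.1%. The log2 fold changes of SQSTM1 and MAP1LC3B were 0.08 and 0.11 without control replicate 3 (adjusted p = 0.747 and 0.696, limma).

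ULK1, the kinase that starts autophagy, had 7.06 to 8.97 FPKM in the controls and 8.42 to 10.1 FPKM under TAX (log2 fold change 0.15, 95% interval -0.07 to 0.38). The log2 fold change of ULK1 was 0.06 without control replicate 3. BECN1, a subunit of the lipid kinase complex that follows ULK1, had 24.8 to 31.2 and 28.2 to 31.2 FPKM (0.07, -0.15 to 0.28). ATG5, part of the machinery that joins LC3 to lipid, had 12.1, 11.6 and 9.51 FPKM in the controls and 8.38, 12.2 and 8.55 FPKM under TAX. TAX replicate 2 held the highest and the other TAX libraries the lowest of the 6 values, so the groups overlapped (log2 fold change -0.19, adjusted p = 0.665, limma). Without TAX replicate 2 the log2 fold change of ATG5 was -0.35 (adjusted p = 0.480, limma), and it was then lower at an unadjusted p under 0.05, as were 2.23% of all genes tested. ATG7, the activating enzyme of this machinery, had a log2 fold change of 0.07 (-0.10 to 0.24), and WIPI1, which binds the lipid made at the growing membrane, had -0.07 (-0.28 to 0.14).

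**Figure D4:**
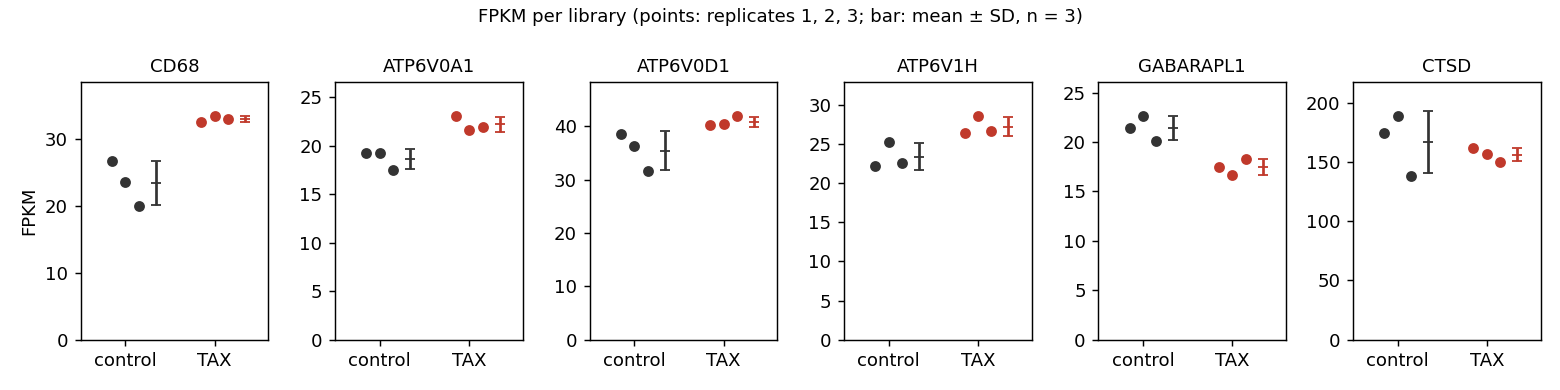
FPKM in each library for the 5 genes at an unadjusted p under 0.05 and for CTSD. Points are replicates 1, 2 and 3 from left to right, and bars are the mean ± SD (n = 3 per group), with each axis starting at 0. CD68 and the 3 pump genes lie higher and GABARAPL1 lower in all TAX libraries, while the TAX values of CTSD lie inside its control range.

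The control libraries were more spread out than the TAX libraries. The standard deviation of log2(FPKM + 1) was larger among control than among TAX libraries for 30 of the 36 genes, and for 73.2% of all genes tested. The median standard deviation of the 36 genes was 0.16 in control and 0.06 in TAX libraries, against 0.12 and 0.07 over all genes tested. The summed FPKM of the 36 genes was 2142, 2379 and 1840 in the controls and 2242, 2221 and 2272 under TAX, so the TAX sums lay inside the control range. The list made up 0.570 to 0.681% of the summed FPKM of a library. Its mean levels were high among the genes tested, with a median percentile of 81.8, and 11 genes lay above the 90th percentile.

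**Figure D5:**
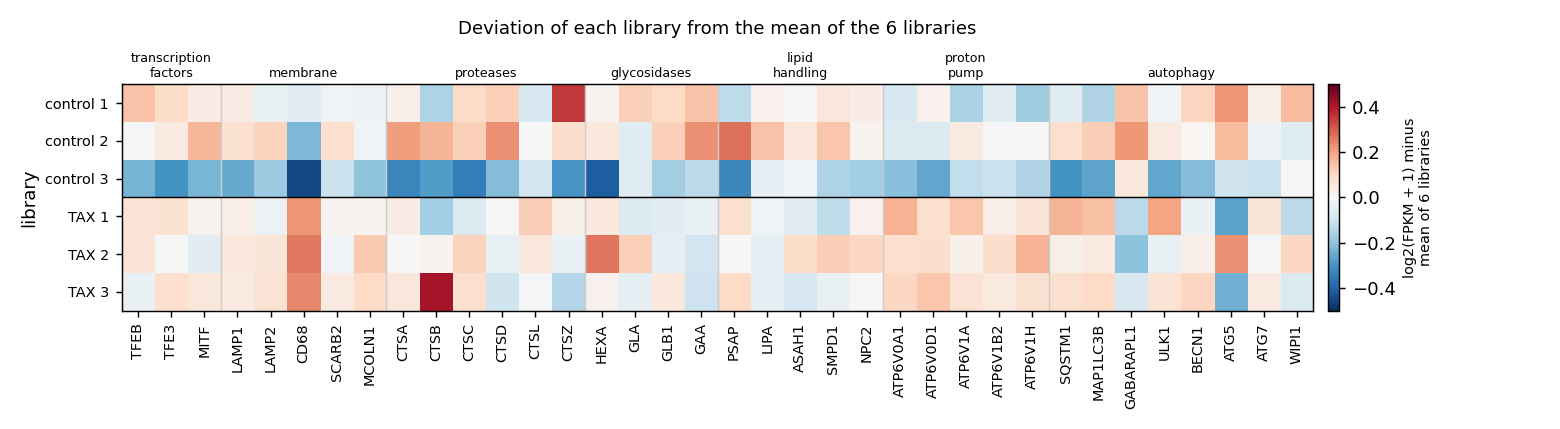
Deviation of each library from the mean of the 6 libraries, on the log2(FPKM + 1) scale, for the 36 genes grouped by role. Red is above and blue below the mean. Control replicate 3 is the lowest library for 28 of the 36 genes, CD68 and the pump genes are above the mean in every TAX library, and GABARAPL1 is below it in every TAX library.

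Beyond the 36 genes, 156 other genes of lysosomes and autophagy were compared in 9 lists, of which 154 could be tested. At an adjusted p under 0.05, 0 of them were higher and 0 were lower. At an unadjusted p under 0.05, 4 were higher (NAGLU, CLN8, CD63 and IFI30) and 2 were lower (SLC38A9 and CTSO) by limma. These are 2.60% and 1.30% of the 154, against 7.73% and 2.41% of all genes tested. The median log2 fold change over all 154 was 0.07. The 3 TAX values lay above the controls for 19 and below them for 3 of these genes, which is 12.3% and 1.95%, against 14.6% and 3.34% of all genes tested.

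The other hydrolases, 37 tested, had a median log2 fold change of 0.02, with 21 on the higher and 16 on the lower side. NAGLU, which degrades heparan sulfate, had 11.3, 12.2 and 11.2 FPKM in the controls and 14.8, 14.2 and 14.0 FPKM under TAX without overlap (log2 fold change 0.29, unadjusted p = 0.00354, adjusted p = 0.212, limma). IFI30, a lysosomal thiol reductase, had the highest log2 fold change of the lists, 0.46 (adjusted p = 0.487, limma), and its groups overlapped through control replicate 1 at 5.81 FPKM. CTSO, a low-abundance cysteine protease, had 1.33 to 1.66 FPKM in the controls and 1.01 to 1.27 FPKM under TAX (log2 fold change -0.21, adjusted p = 0.471, limma). Among 20 other membrane proteins, 12 were on the higher and 8 on the lower side. SLC38A9, the amino acid sensor that signals to mTORC1, had 9.52, 9.72 and 9.93 FPKM in the controls and 8.70, 8.21 and 8.06 FPKM under TAX (log2 fold change -0.20, adjusted p = 0.411, limma). CD63, a tetraspanin of late endosomes, had 222 to 236 FPKM in the controls and 248 to 299.6 FPKM under TAX (0.22, adjusted p = 0.474, limma). The groups did not overlap for CTSO, SLC38A9 and CD63.

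Of 12 genes for sorting and transport of lysosomal enzymes, 10 were on the higher side, and CLN8, which moves enzymes out of the endoplasmic reticulum, had the smallest p. Its level was 6.68, 6.30 and 5.69 FPKM in the controls and 8.74, 7.64 and 7.64 FPKM under TAX, without overlap (log2 fold change 0.32, unadjusted p = 0.00450, adjusted p = 0.234, limma). NAGPA, which uncovers the mannose 6-phosphate tag of the enzymes, had a log2 fold change of 0.18 (adjusted p = 0.563, limma). Of 17 tested genes of mTORC1 and its lysosomal regulators, 15 were on the higher side with a median of 0.09, and 0 passed an unadjusted p under 0.05. RPTOR, the mTORC1 scaffold, and RRAGA, a Rag GTPase, had the smallest p, with log2 fold changes of 0.22 and 0.16.

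In the lists for autophagy, 0 genes passed an unadjusted p under 0.05. Of 19 genes for the start and growth of the autophagosome, 15 were on the higher side with a median log2 fold change of 0.06, and WDR45B and ATG2B, with the smallest p, were both at 0.16. Of 12 genes for conjugation, 9 were on the higher side with a median of 0.07. ATG16L1, which places LC3 on the membrane, had 9.45, 11.0 and 8.38 FPKM in the controls and 11.3, 11.3 and 11.2 FPKM under TAX (0.21, adjusted p = 0.492, limma), and ATG10 had 0.14. Of 12 cargo receptors, 8 were on the higher side with a median of 0.03, and RETREG1 and PHB2 had the smallest p, with 0.16 and 0.18. Of 13 genes for fusion with the lysosome, 11 were on the higher side with a median of 0.08, and TECPR1 and PLEKHM1, both without overlap, had 0.20 and 0.24 (adjusted p = 0.493 and 0.513, limma). The median of all genes tested was 0.05, with 8537 of them on the higher side.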

How the data were processed

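Total RNA was isolated with Trizol and sequenced from 6 cultures, and the authors deposited 1 table of FPKM per library. Per the labels, HISAT2 2.2.0, StringTie 2.1.2 and GRCh38 were used. Their settings, the annotation and the strand mode are not given in the sources used here, and the unit, not named in the tables, was taken as FPKM from decimals with unequal sums. From these values log2(FPKM + 1) was fitted with limma 3.58.1 in R 4.3.3 (trend, no covariate) over the 12359 genes that reached 1 FPKM in 3 or more libraries. The code was tested on simulated data, and a count test, planned if the tables held counts, was not used. An exact permutation test, planned for genes under the filter, was not needed, since all 36 passed. The 36 genes and the lists were chosen with earlier results of these data known. All 36 were named, and of the other lists every gene with an adjusted p under 0.05 and the 2 with the smallest p. IFI30, FBXO31, MGAT4B, PNPLA6, MAP1LC3B2, GABARAP, GABARAPL2, MAP1LC3A, AC016876.2, AC068580.4 and the IFIT genes were named after their values or positions were seen. Promoters came from RefSeq (GRCh38.p14) and positions from GENCODE 29, both matched by symbol. Alternatives were another pseudocount, 2 other filters, 3 scalings, limma without trend, a replicate block and leaving out each library. The value of 1 further marker gene is not reported here.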

Additional observations from a re-analysis of the deposited data

How the results depend on the processing

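The number of lysosome and autophagy genes higher at an adjusted p under 0.05 was 0 and became 1 after quantile normalization, centring on the library median and scaling to a sum of 1000000. The number lower was 0 and became 1 after quantile normalization and centring. At an unadjusted p under 0.05, 4 genes were higher, 2 after quantile normalization and 5 after scaling to a fixed sum, and 1 was lower, 3 after quantile normalization and after centring and 2 after scaling to a fixed sum. Of all genes tested, 6.03% were higher and 5.79% lower at this threshold after quantile normalization. The shares were 5.52% and 6.59% after centring, and 8.36% and 4.20% after scaling to a fixed sum. With each library left out, the counts were 1 to 8 higher and 1 to 4 lower at an unadjusted p, where 4.57% to 11.1% of all genes were higher and 1.73% to 5.59% lower, and 0 in both directions at an adjusted p. The highest count came without control replicate 2, the count of 4 lower without control replicate 3 and that of 1 higher without TAX replicate 1. The median log2 fold change of the 36 genes was 0.07 and ranged from -0.01 without control replicate 3 to 0.14 without control replicate 2. The median of all genes tested was 0.0055 and 0.078 in those fits. Among 504 refits of single genes, 468 kept direction and call, and 20 genes never changed sign. The 2 other filters, limma without trend and the replicate block leave each log2 fold change as it was, so no sign could change there. With 0 of the 36 genes called in the main fit, a call could only be gained, so these counts are no measure of stability. After quantile normalization the log2 fold changes were -0.040 for MITF, -0.033 for SCARB2, -0.018 for CTSA, -0.063 for GLA and -0.0014 for BECN1. After centring they were -0.043 for MITF, -0.027 for SCARB2 and -0.055 for GLA, and after scaling to a fixed sum -0.011 for MITF and -0.025 for GLA. With each library left out they ranged from -0.035 to 0.15 for TFEB, -0.016 to 0.18 for TFE3, -0.10 to 0.10 for MITF, -0.011 to 0.15 for LAMP1, -0.0045 to 0.14 for LAMP2, -0.016 to 0.079 for SCARB2, -0.086 to 0.18 for CTSA, -0.064 to 0.17 for CTSC, -0.22 to 0.0070 for CTSD, -0.27 to 0.053 for CTSZ, -0.057 to 0.063 for GLA, -0.12 to 0.022 for GLB1, -0.014 to 0.29 for PSAP, -0.084 to 0.0027 for ASAH1, -0.11 to 0.035 for SMPD1 and -0.024 to 0.14 for BECN1. The cause was not tested. Whether the replicate numbers pair the libraries is not stated. Same-numbered libraries deviated from their group means with r of -0.117, -0.333 and -0.171 across genes, and differently numbered ones with r of -0.167 to 0.292. Deviations within a group sum to 0, which ties these values to each other, so they cannot show how the cultures were set up. With the replicate block 3 of the 36 genes were higher and 1 was lower at an unadjusted p under 0.05. The shares of all genes tested were then 5.57% and 2.29%. Over all genes, 26 instead of 59 had an adjusted p under 0.05. Over all genes that number was 37 with the filter at 0.1 FPKM, 1 without a filter, 95 after quantile normalization (47 higher, 48 lower, against 39 and 20 without it), 96 after centring (46 and 50) and 19 to 40 with each library left out. Read depth is unknown and sets no interval here.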

Other observations

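COL1A1, in the list of fibroblast markers, had 2.02, 2.08 and 1.89 FPKM in control and 1.43, 1.48 and 1.42 FPKM in TAX replicates without overlap (log2 fold change -0.29, adjusted p = 0.197, limma), while COL3A1 had 0.0321 to 0.0557 FPKM in control and 0.0536 to 0.0755 FPKM in TAX libraries and COL1A2, DCN and LUM were listed at 0 in all 6.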
